A study of Mus musculus with 6 samples.

Results

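The genes described here are the 4 Notch receptors of the mouse, Notch1, Notch2, Notch3 and Notch4, their ligands Dll1, Dll3, Dll4, Jag1 and Jag2, and Rbpj, the DNA-binding partner of the receptors. These genes were measured in day 12 mouse embryos homozygous or heterozygous for a mutant form of the transcription factor STAT3, and in wild-type embryos. They are 10 of the 20659 genes that the array names. Every gene probe whose accession maps to one of these symbols was taken, which gave 14 probes on 23 spots per array: 4 genes (Notch1, Notch2, Dll3 and Rbpj) had 2 probes each, and the single Dll1 probe was printed on 10 spots. The set was chosen by measured values of these arrays, because both Notch1 probes were lower in homozygous embryos. Every difference between homozygous embryos and the other genotypes is therefore given for these genes as a description. Where a probe of these genes is said to pass the threshold of the fit in such a comparison, that describes its values too and is not evidence of a change.

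RNA of 6 embryos was hybridised to 1-colour Agilent mouse arrays, 2 embryos homozygous for the mutation labelled STAT3-K177K180R, 2 heterozygous embryos and 2 wild-type embryos. According to the labels the 3 genotypes came from the same womb and each group was run as 2 independent experiments, while the strain, the sex and the number of litters are not given there. The embryos come from a mutant mouse line, and the tissue is labelled only as embryo, although the extraction protocol speaks of tumor tissue. The samples were taken here as embryos, so each value is an average over all cell types. In such samples fewer cells of a type and less RNA per cell cannot be told apart.

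Notch receptors are membrane proteins that bind ligands on neighbouring cells. Ligand binding exposes the receptor to ADAM proteases and then to gamma-secretase, which releases an intracellular part that enters the nucleus, joins RBPJ and Mastermind proteins and switches on target genes such as Hes1, Hes5 and the Hey genes. In the embryo the pathway holds neural progenitors back from becoming neurons, by repressing proneural genes such as Neurog2, sets somite boundaries, and shapes arteries and their muscle coat. STAT3, activated by cytokine receptors, is a transcription factor in its own right.

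Signals are given as log2 of the processed signal minus the array's 75th percentile, so a probe at 0 is as bright as that percentile of its array, and they compare embryos at 1 probe, not 1 probe with another. The 75th percentile was 856 and 784 on the homozygous arrays, 1186 and 1258 on the heterozygous arrays and 1035 and 1064 on the wild-type arrays. Between 72.0% and 74.6% of gene probes lay well above background on homozygous arrays, against 76.0% to 78.3% on heterozygous and 76.4% to 77.1% on wild-type arrays. The median signal of the negative control spots was 43.5 and 48 on the homozygous arrays and 26 to 27 on the other 4. Per the file headers, both homozygous arrays belonged to one scan and the heterozygous and wild-type arrays to the other, so the scan and the homozygous genotype cannot be told apart in anything that follows. There were 2 arrays per genotype, and this small number limits how precise each value is.

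Notch1, the receptor that maintains neural progenitors and is needed for somite and vessel formation, had by far the widest difference of the 14 probes. Its brighter probe read −2.64 and −3.52 in homozygous embryos, 1.61 and 0.74 in heterozygous embryos and 1.34 and 1.43 in wild-type embryos. As signal before scaling between arrays, that was 137.3 and 68.5 in homozygous embryos, 3617.8 and 2106.5 in heterozygous embryos and 2616.0 and 2866.2 in wild-type embryos. Both homozygous embryos lay far below the other 4, and the probe was well above background on all 6 arrays. The mean was lower than wild type by a log2 difference of −4.46 ± 0.37 (SE of the fit, 2 embryos per genotype), which is 22.1-fold, and lower than heterozygous by −4.26 ± 0.37, which is 19.1-fold. In the list of 29909 probes ordered from the most lower in homozygous embryos, it stood at place 25, and 48 probes (0.160%) were lower by 16-fold or more.

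**Figure D1:**
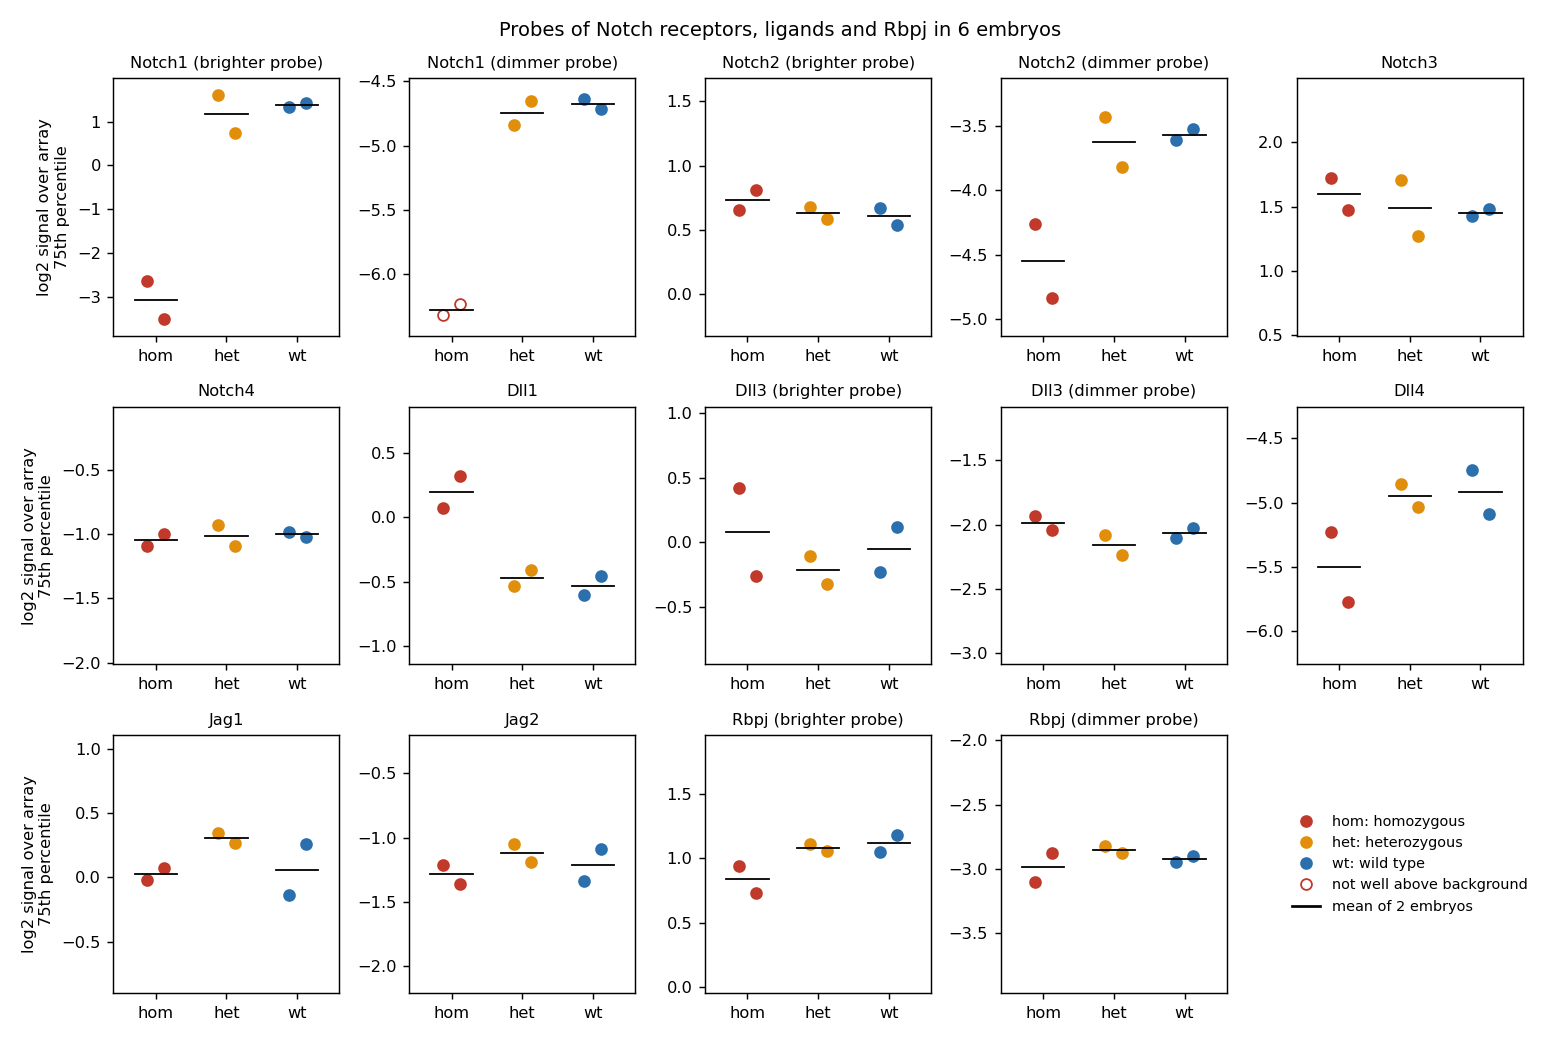
Normalized log2 signal of each of the 14 probes in the 6 embryos (2 homozygous, 2 heterozygous, 2 wild type), 1 panel per probe, with the vertical axis of each panel spanning at least 2 log2 units; points are embryos, horizontal lines the mean of 2 embryos, and open points are not well above background. Both Notch1 probes and the dimmer Notch2 probe are lower and Dll1 is higher in the 2 homozygous embryos than in the other 4.

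The dimmer Notch1 probe went the same way on a smaller scale and close to background. It read −6.32 and −6.23 in homozygous embryos, −4.84 and −4.65 in heterozygous embryos and −4.64 and −4.71 in wild-type embryos. The 2 homozygous embryos were again below the other 4, but the probe was not well above background on either homozygous array, so its fold is a lower bound: at least 2.74-fold lower than in wild type and at least 2.61-fold lower than in heterozygous embryos. Such bounds set the brighter group's mean against the dimmest signal still well above background on each dim array, or against what the probe itself read if that was more. They apply only to signals with the scanner software's background correction. The measured difference from wild type was −1.60 ± 0.13. With normexp background correction in place of the scanner software's, the difference at the dimmer probe shrank to −0.13, while at the brighter probe it was −3.77. The normexp setting adds an offset of 50 to each corrected signal, which by itself narrows log2 differences between dim signals. The scanner files give an accession for each probe but no position, so where in the Notch1 transcript the probes lie was not analysed here.

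The Notch1 level also differed between embryos of 1 genotype. At the brighter probe the 2 homozygous embryos were 0.88 apart and the 2 heterozygous embryos 0.87 apart, the widest gaps of the 14 probes in those genotypes, while the 2 wild-type embryos were 0.09 apart. The median gap over the 14 probes was 0.22 in homozygous, 0.16 in heterozygous and 0.11 in wild-type embryos, close to the 0.25, 0.17 and 0.11 of all probes tested.

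The promoter of Notch1, shown as the 250 bases before its start because this gene carries the widest difference, lies on the reverse strand of chromosome 2 directly upstream of the gene, which spans 26457902 to 26503822 (RefSeq, GRCm38.p6). The window is at chr2:26503823-26504072 and 66% of its bases are G or C. That of Dll1, shown because its homozygous minus wild-type difference was the highest of these genes, lies on the reverse strand at chr17:15376933-15377182. It is upstream of the gene at 15367354 to 15376932, with 56% G or C.
Notch1: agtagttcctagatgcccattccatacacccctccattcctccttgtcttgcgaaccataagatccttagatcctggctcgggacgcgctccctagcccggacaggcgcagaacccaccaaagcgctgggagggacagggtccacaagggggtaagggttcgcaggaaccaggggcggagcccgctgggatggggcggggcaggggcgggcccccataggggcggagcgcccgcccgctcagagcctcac
Dll1: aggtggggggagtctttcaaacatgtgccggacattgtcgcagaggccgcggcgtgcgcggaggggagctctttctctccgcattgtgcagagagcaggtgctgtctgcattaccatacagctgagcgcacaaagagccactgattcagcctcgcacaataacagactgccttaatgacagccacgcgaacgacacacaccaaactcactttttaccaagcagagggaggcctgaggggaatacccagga
Neither window holds the STAT core motif TTCNNNGAA, whose reverse complement is itself, nor the RBPJ motif TGGGAA on either strand, so no base is in capitals. The STAT motif was in none of the 12 RefSeq windows of the 10 genes, and in 7.02% of all 32851 mouse windows of the same length. The RBPJ motif was in 2 of the 12 windows, both of Rbpj, and in 21.6% of all windows. These 2 Rbpj windows overlap, and the only site of the second is also a site of the first. A match or its absence describes these letters only.

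The other receptors did not share the pattern. Notch2, a widely expressed receptor needed for kidney and heart development, read 0.65 and 0.81 in homozygous embryos, 0.68 and 0.59 in heterozygous embryos and 0.67 and 0.54 in wild-type embryos at its brighter probe, a difference from wild type of 0.13 ± 0.13. The genotypes overlapped there. Its dimmer probe read −4.26 and −4.83 in homozygous embryos, −3.43 and −3.82 in heterozygous embryos and −3.61 and −3.53 in wild-type embryos. At this probe both homozygous embryos were the lowest of the 6, by −0.98 ± 0.23 from wild type (1.97-fold), so the 2 Notch2 probes did not give the same answer. With normexp background correction the difference at the dimmer probe was −0.25.

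Notch3, the receptor of vascular smooth muscle, read 1.72 and 1.47 in homozygous embryos, 1.71 and 1.27 in heterozygous embryos and 1.42 and 1.48 in wild-type embryos, and the genotypes overlapped. Notch4, a receptor of endothelial cells, read −1.09 and −1.00 in homozygous embryos, −0.93 and −1.09 in heterozygous embryos and −0.98 and −1.03 in wild-type embryos, the narrowest spread of the receptors. Their differences from wild type in homozygous embryos were 0.14 ± 0.18 for Notch3 and −0.04 ± 0.13 for Notch4.

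Among the ligands, both homozygous embryos lay outside the range of the other 4 at Dll1, which was higher, and at Dll4, which was lower. Dll1, a Delta ligand of neural progenitors and the presomitic mesoderm, read 0.07 and 0.32 in homozygous embryos, −0.53 and −0.41 in heterozygous embryos and −0.61 and −0.46 in wild-type embryos. Both homozygous embryos lay above the other 4, by 0.73 ± 0.15 from wild type (1.66-fold) and 0.66 ± 0.15 from heterozygous embryos (1.58-fold). The 10 spots of this probe show how far the measurement itself scattered on 1 array: their coefficient of variation was 2.98% to 6.30% over the 6 arrays, and the log2 SD 0.043 to 0.095. On this scale the lowest spot of the homozygous arrays was at −0.04, above the highest spot of the heterozygous arrays at −0.34 and of the wild-type arrays at −0.36. The spots of an array share its RNA and are not replicates of a genotype. Before scaling between arrays the spot means were closer, 898 and 981 on homozygous, 820 and 950 on heterozygous and 680 and 775 on wild-type arrays.

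**Figure D2:**
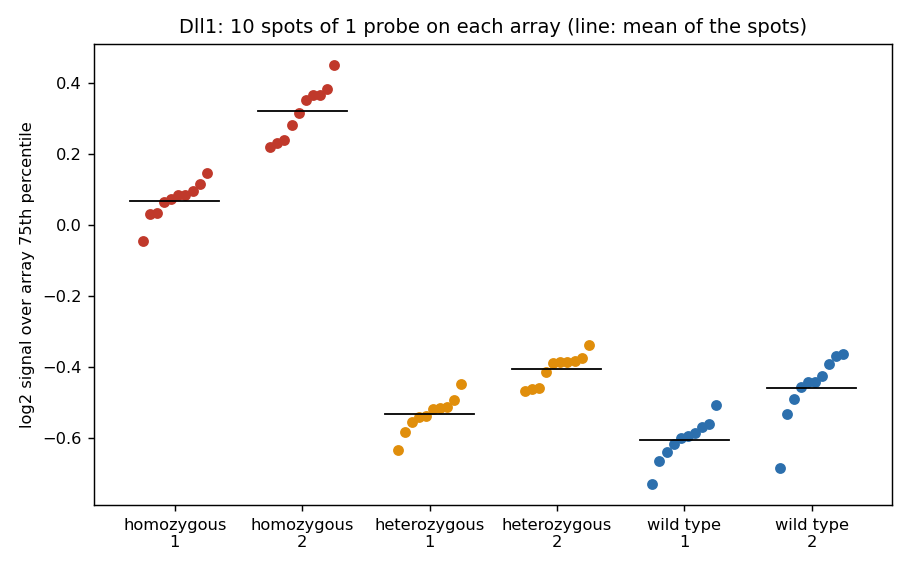
Normalized log2 signal of the 10 spots of the Dll1 probe on each of the 6 arrays (2 homozygous, 2 heterozygous, 2 wild type); points are spots and lines their mean. All spots of the 2 homozygous arrays, from −0.04 upward, lie above all spots of the other 4 arrays, which reach −0.34.

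Dll3, a Delta-like protein of the somites and nervous system that inhibits signalling within its own cell, read 0.42 and −0.26 in homozygous embryos, −0.11 and −0.32 in heterozygous embryos and −0.23 and 0.12 in wild-type embryos at its brighter probe. The 2 homozygous embryos stood at opposite ends there, one the highest of the 6 embryos and the other among the lowest. Its dimmer probe read −1.93 and −2.04 in homozygous embryos, −2.08 and −2.24 in heterozygous embryos and −2.11 and −2.02 in wild-type embryos. The homozygous embryos overlapped with the wild-type embryos and lay above both heterozygous embryos.

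Dll4, the Delta ligand of arterial and sprouting endothelium, read −5.23 and −5.77 in homozygous embryos, −4.85 and −5.04 in heterozygous embryos and −4.75 and −5.09 in wild-type embryos. The homozygous embryos were the lowest, by −0.58 ± 0.22 from wild type, a difference that did not reach the threshold in the fit of all 6 arrays and was 0.02 with normexp background correction. Jag1, a Jagged ligand of the inner ear, heart and bile ducts, read −0.02 and 0.07 in homozygous embryos, 0.35 and 0.27 in heterozygous embryos and −0.14 and 0.26 in wild-type embryos. Both heterozygous embryos were the highest of the 6 at this probe, and the homozygous embryos lay between the 2 wild-type embryos. Jag2, a Jagged ligand of limb and palate, read −1.21 and −1.36 in homozygous embryos, −1.05 and −1.19 in heterozygous embryos and −1.34 and −1.09 in wild-type embryos. Both homozygous embryos lay below both heterozygous embryos and overlapped with the wild-type embryos.

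Rbpj, the transcription factor through which all 4 receptors act, read 0.94 and 0.73 in homozygous embryos, 1.11 and 1.06 in heterozygous embryos and 1.05 and 1.18 in wild-type embryos at its brighter probe. The 2 homozygous embryos were the lowest, by −0.28 ± 0.14 from wild type. At the dimmer probe it read −3.10 and −2.87 in homozygous embryos, −2.82 and −2.88 in heterozygous embryos and −2.95 and −2.90 in wild-type embryos, and the homozygous and wild-type embryos overlapped. One Rbpj window, at chr5:53590096-53590345 on the forward strand, is shown because it holds the RBPJ motif at 2 places, in capitals, beginning 149 and 65 bases before the end of the window (the later one as the reverse complement). RefSeq gives the gene as 53555779 to 53657445, so this window lies inside it, before a start within the gene and not at its first base.
Rbpj: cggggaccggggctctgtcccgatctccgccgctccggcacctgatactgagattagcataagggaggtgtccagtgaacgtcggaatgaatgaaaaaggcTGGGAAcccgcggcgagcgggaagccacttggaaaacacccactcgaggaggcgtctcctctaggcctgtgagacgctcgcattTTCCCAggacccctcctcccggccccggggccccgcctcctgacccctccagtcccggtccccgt

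**Figure D3:**
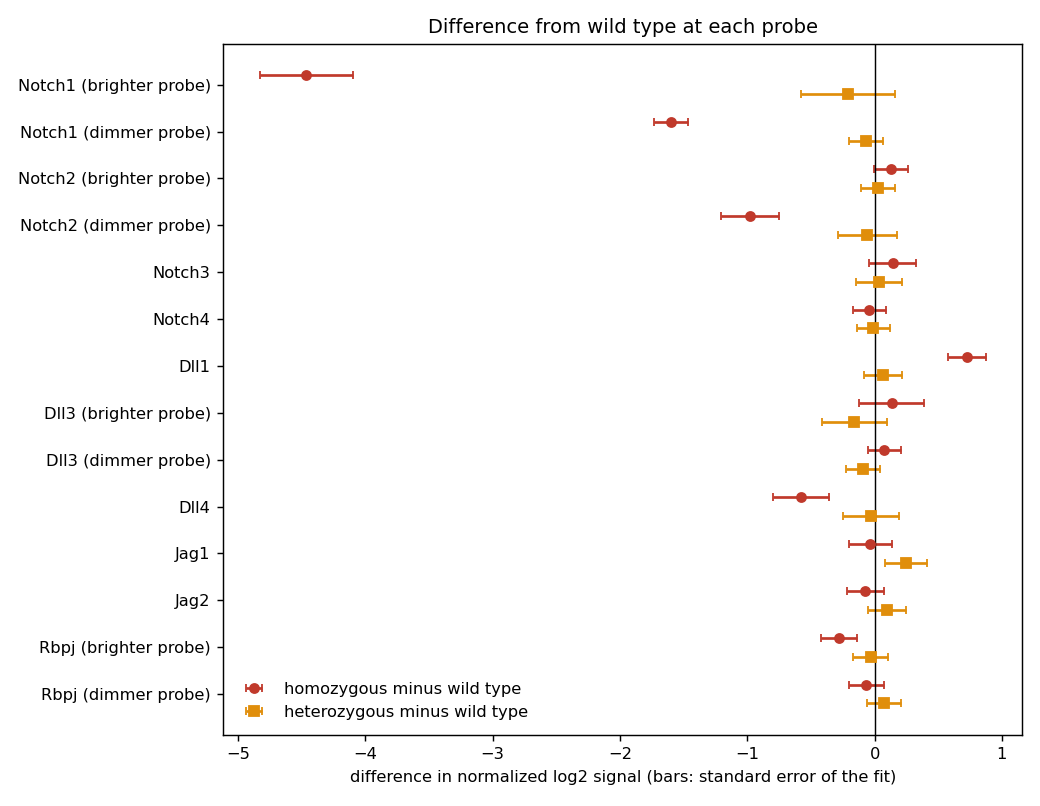
Difference from wild type in normalized log2 signal at each of the 14 probes, for homozygous embryos (circles) and heterozygous embryos (squares); bars are the standard error of the fit and the line marks 0. The homozygous differences run from −4.46 at the brighter Notch1 probe to 0.73 at Dll1, the heterozygous ones from −0.21 to 0.25.

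Counted over the 14 probes, 4 reached an adjusted p below 0.05 in homozygous against wild-type embryos, 1 higher (Dll1) and 3 lower (both Notch1 probes and the dimmer Notch2 probe). The adjusted p is limma's moderated test with Benjamini-Hochberg adjustment over all probes. Of all 29909 probes tested, 27.8% did so (13.3% higher, 14.5% lower), and since this contrast chose the genes, nothing is read from the count. Homozygous and wild-type embryos did not overlap at 6 of the 14 probes (1 above, 5 below), against 68.9% of all probes (38.5% above, 30.4% below). The median difference was −0.05 over the 14 probes and 0.08 over all probes. Without Notch1, the 12 probes of the other 9 genes ran from −0.98 to 0.73. Leaving out either wild-type embryo left 2 of the 14 past the threshold. Against heterozygous embryos the same 4 probes passed (22.8% of all probes did, 9.68% higher and 13.1% lower), and 9 of the 14 did not overlap, 2 above and 7 below (63% of all probes, 34.6% above and 28.4% below). Leaving out any 1 heterozygous or wild-type embryo left 2 of the 14 there. The 2 comparisons share the homozygous embryos.

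In heterozygous embryos no Notch receptor, ligand or Rbpj probe differed detectably from wild type, and this comparison, which did not choose the genes and lies within 1 scan, was tested. None of the 14 probes passed (limma, adjusted p = 1.00 at each), none had an unadjusted p below 0.05, and the smallest unadjusted p was 0.184. Over all probes 0% passed, and 627 of 29908 had an unadjusted p below 0.05. The fit limits how large a missed difference could be: for the brighter Notch1 probe, −0.21 ± 0.37, the 95% interval of the log2 difference was −1.09 to 0.68, and for the dimmer one, −0.07 ± 0.13, it was −0.39 to 0.25. For Dll1, 0.06 ± 0.15, it was −0.29 to 0.42. The widest positive difference was that of Jag1, 0.25 ± 0.17, with an interval of −0.15 to 0.65. Heterozygous and wild-type embryos did not overlap at 2 probes, Jag1 and the dimmer Rbpj probe, both higher, against 26.6% of all probes.

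The 2 probes of a gene were then set side by side. For Notch1 both were lower in homozygous than in wild-type embryos, for Rbpj both were lower and for Dll3 both were higher, while the Notch2 probes had opposite signs. Among all 4437 genes with at least 2 tested probes, the 2 brightest had the same sign in 54.1% for homozygous against wild type, with a median gap of 0.43 between their differences. For heterozygous against wild type it was 61.8%, with a median gap of 0.08.

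**Figure D4:**
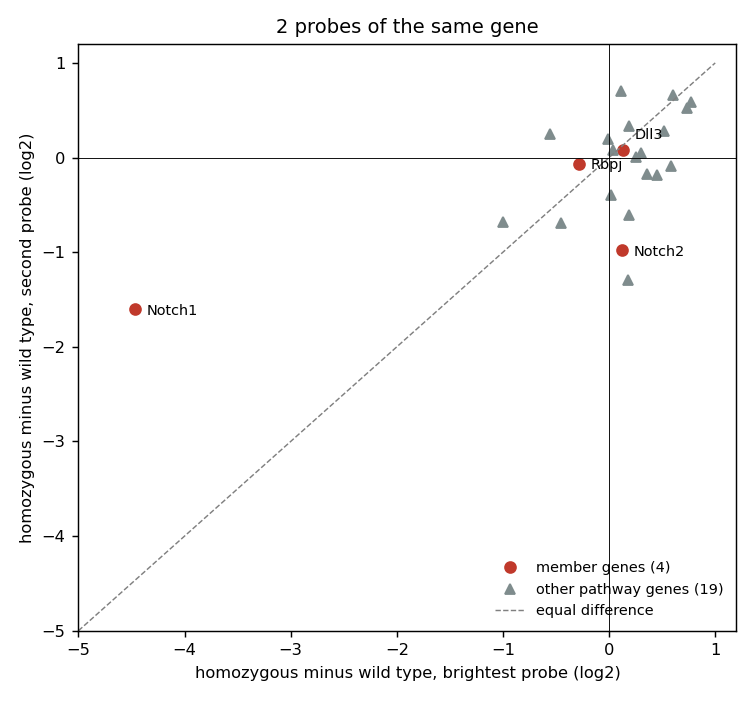
Homozygous minus wild-type difference in log2 signal at the brightest probe (horizontal axis) and the second probe (vertical axis) of each gene with at least 2 tested probes, for the 4 genes described (circles) and 19 other pathway genes (triangles); the dashed line marks equal differences. Notch1 lies far from the rest at −4.46 and −1.60, and Notch2 has a second probe at −0.98 beside a first at 0.13.

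The profile of the brighter Notch1 probe over the 6 arrays was most like that of 3 genes, by the root mean square difference of profiles centred on their mean. They were Slc16a7, a monocarboxylate transporter (0.09, with a homozygous minus wild-type difference of −4.26), Trpm1, a cation channel (0.12 and −4.68), and Chat, choline acetyltransferase (0.17 and −4.58). Slc16a7 and Chat had 1 tested probe each, and the second Trpm1 probe had a difference of 0.58.

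Of 60 other pathway genes in 5 lists, 58 had a tested probe, and each was read at its brightest one. In homozygous against wild-type embryos 12 of the 58 passed, 7 higher and 5 lower, against 25.3% of 16981 named genes (14.9% higher, 10.4% lower). Their median difference was 0.21, against 0.14 over all named genes. In homozygous against heterozygous embryos 8 passed, 4 higher and 4 lower (20% of named genes, 10.7% higher and 9.31% lower), and in heterozygous against wild-type embryos none did (0% of named genes). Without 1 wild-type embryo few calls were left: 1, Neurog1, without the first, and 3, Neurog1, Neurog2 and Insm1, without the second. Without either heterozygous embryo 6 passed.

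**Figure D5:**
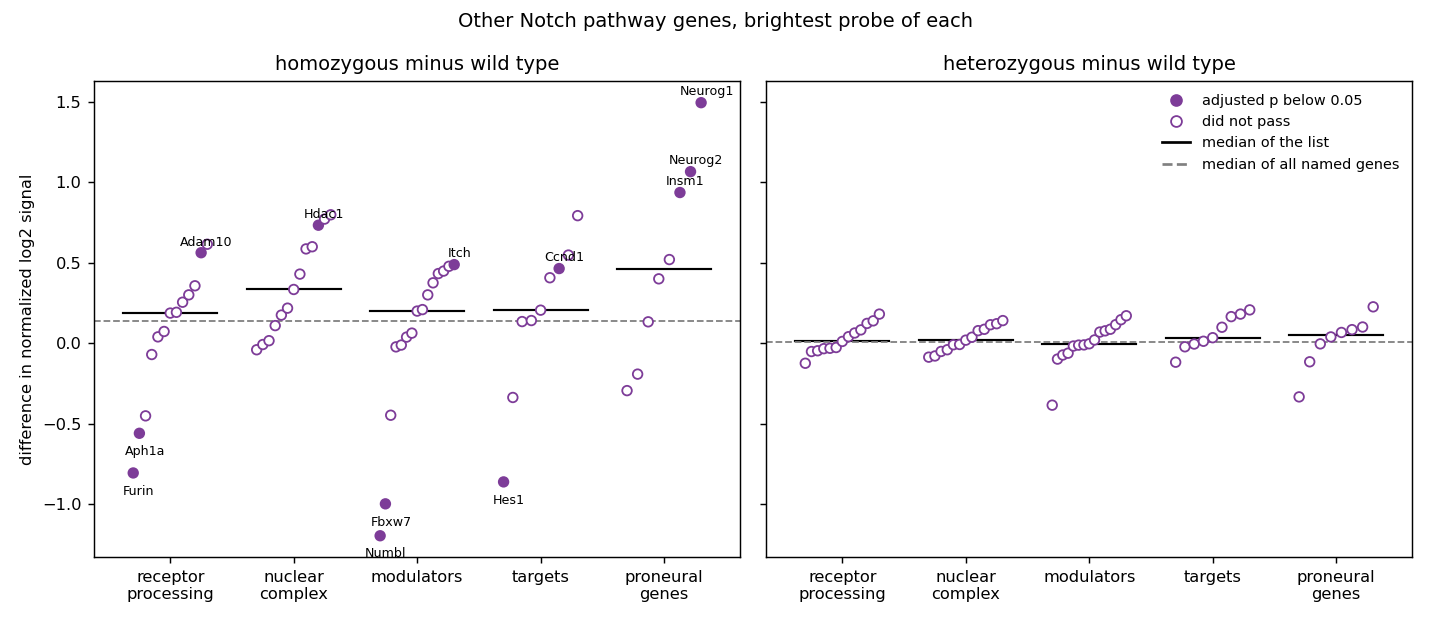
Difference from wild type in normalized log2 signal of 58 other Notch pathway genes at their brightest probe, by list, in homozygous (left) and heterozygous embryos (right); each point is a gene, filled where the adjusted p is below 0.05, with the median of the list (solid) and of all named genes (dashed). Filled points appear in the homozygous panel only, from Numbl at −1.19 to Neurog1 at 1.49.

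Receptor processing was mixed, with 1 gene up and 2 down among 13 and a median of 0.19. Furin, the protease that cleaves Notch receptors on their way to the surface, read 2.14 and 1.74 in homozygous embryos, 2.80 and 2.59 in heterozygous embryos and 2.72 and 2.77 in wild-type embryos. Both homozygous embryos were below the rest, and it fell by 0.80 ± 0.17 (adjusted p = 0.0194). Adam10, the protease of the ligand-induced cut, rose by 0.56 ± 0.16 (adjusted p = 0.0422). Aph1a, a gamma-secretase subunit, fell by 0.56 ± 0.17 at its brighter probe (adjusted p = 0.0491), but its dimmer probe differed by 0.25 ± 0.20 the other way. The dimmer probes of Rfng (−0.60) and Adam17 (−0.69) passed as lower, while their brighter probes, at 0.19 and −0.45, did not pass. The dimmer Rfng probe was not well above background on either homozygous array. No other dimmer probe of this list passed. The calls of Adam10 and Aph1a were each lost in 8 of 15 alternative settings, such as the fit of 4 arrays only and the one with the replicate number as a block.

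In the nuclear complex, the coactivators and corepressors that join RBPJ, 1 of 13 genes passed, and the median was 0.33. Hdac1, a histone deacetylase of corepressor complexes, read 4.22 and 3.97 in homozygous embryos, 3.37 and 3.33 in heterozygous embryos and 3.34 and 3.38 in wild-type embryos at its brightest probe. The homozygous embryos were above the other 4, and the rise was 0.73 ± 0.14 (adjusted p = 0.0131). The next brightest probe rose by 0.52 ± 0.12 and the dimmest fell by 0.52 ± 0.13, both past the threshold, so the 3 probes of Hdac1 disagreed in direction. Dimmer probes of Tle1 (0.70 and −0.62) and Maml3 (−1.29 and −0.48) passed too, though the brightest probe of neither gene did. Both of these Maml3 probes were well above background on only 1 homozygous array. Over the 5 lists, 19 genes had at least 2 tested probes, and the 2 brightest had the same sign in 11.

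Of the 15 modulators, most of which act on receptor or ligand turnover, 1 rose and 2 fell, with a median of 0.20. Numbl, a relative of the Notch inhibitor Numb, read 1.69 and 1.08 in homozygous embryos, 2.68 and 2.45 in heterozygous embryos and 2.47 and 2.69 in wild-type embryos, lowest in both homozygous embryos. It fell by 1.19 ± 0.23 (adjusted p = 0.0129). Fbxw7, the ubiquitin ligase subunit that marks the cleaved receptor for destruction, fell by 1.00 ± 0.26 (adjusted p = 0.0355) and its second probe fell by 0.68 ± 0.12 (adjusted p = 0.0116). Itch, another ubiquitin ligase of the receptor, rose by 0.49 ± 0.13 (adjusted p = 0.036), a call lost in 10 of 15 alternative settings, while that of the brighter Fbxw7 probe was lost in 6 of 15.

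Target genes did not move as a block: 1 of 9 rose and 1 fell, with a median of 0.21. Hes1, the repressor most often used to read Notch activity, read −0.82 and −1.09 in homozygous embryos, 0.20 and 0.03 in heterozygous embryos and −0.21 and 0.02 in wild-type embryos. Both homozygous embryos were the lowest, by −0.86 ± 0.16 from wild type (1.82-fold, adjusted p = 0.0128) and −1.07 from heterozygous embryos (adjusted p = 0.0077). Ccnd1, a cyclin, rose by 0.46 ± 0.13 (adjusted p = 0.0422), a call lost in 11 of 15 alternative settings. The other 7 did not pass, and their differences were 0.55 ± 0.23 for Hes5, the main Notch target of neural progenitors, 0.13 for Hes7, 0.21 for Hey1, 0.79 ± 0.40 for Hey2, 0.41 for Heyl, 0.14 for Nrarp and −0.34 for Myc. The Hey2 value rests on 1 embryo: it was 1.46 without the first homozygous embryo and 0.13 without the second.

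In the proneural genes, which drive neurons out of the progenitor state and which Hes proteins repress, 3 of 8 rose and none fell, with a median of 0.46. Neurog2 read −0.24 and 0.22 in homozygous embryos, −1.03 and −0.95 in heterozygous embryos and −1.38 and −0.77 in wild-type embryos, with both homozygous embryos highest, a rise of 1.06 ± 0.25 (adjusted p = 0.0246). Insm1, a factor of newborn neurons and their precursors, rose by 0.94 ± 0.23 (adjusted p = 0.0285), a call lost in 6 of 15 alternative settings. Neurog1 read −5.01 and −4.93 in homozygous embryos, −6.28 and −6.57 in heterozygous embryos and −6.41 and −6.51 in wild-type embryos. It rose by 1.49 ± 0.15 (adjusted p = 0.00192), at a probe that 1 of the 2 wild-type arrays did not place well above background, and the difference was 0.65 with normexp background correction and 0.39 with normexp and quantile normalization.

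Markers of cell types that use these genes were read in the same arrays, as summed signal in multiples of the array's 75th percentile, each gene at its brightest probe. Of all named genes read so, 14.9% were higher and 10.4% lower past the threshold in homozygous against wild type. The 7 endothelial markers summed to 11.7 to 12.4 in homozygous, 11.6 to 12.2 in heterozygous and 11.4 to 11.9 in wild-type embryos, and none passed in homozygous against wild type, beside the values of Notch4 and Dll4, although the second probe of Kdr fell by 0.67 and passed (adjusted p = 0.0327). The 6 neural progenitor markers summed to 23.9 to 26.3 in homozygous, 18.6 to 20.3 in heterozygous and 18.5 to 19.5 in wild-type embryos, and 1, Msi1, passed and was higher at its brighter probe. Second probes of this list went the other way and passed, with Msi1 lower by −0.49 (adjusted p = 0.0366) and Sox1 by −1.77 (adjusted p = 0.00162). These progenitor levels stand beside the values of Notch1, Dll1, Hes1 and the proneural genes, and their part in them was not tested. Of the 6 neuron markers 1, Elavl3, fell, and the sums overlapped (33.9 to 41.0 in homozygous, 34.4 to 38.9 in heterozygous and 35.1 to 38.9 in wild-type embryos).

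Of the 5 presomitic markers, beside Dll1 and Dll3, 1 rose (Ripply2) and 2 fell (Msgn1 and T). In homozygous against heterozygous embryos Msgn1 and T passed as lower and Ripply2 did not pass. Msgn1 was not well above background on either homozygous array, and T was well above it on only 1 of them. The size of these falls is therefore uncertain. The sums of the 5 markers were 0.273 to 0.341 in homozygous, 0.300 to 0.302 in heterozygous and 0.327 to 0.334 in wild-type embryos. Of the 5 smooth muscle and pericyte markers 4 rose, beside Notch3, with sums of 24.1 to 25.8 in homozygous, 16.8 to 18.9 in heterozygous and 15.8 to 17.7 in wild-type embryos. In homozygous against heterozygous embryos 1 of these 5, Tagln, passed and was higher. The tested trophoblast and decidua markers, 3 of 5, summed to 8.25 to 17.3 in homozygous, 40.8 to 57.9 in heterozygous and 49.8 to 57.4 in wild-type embryos. Of these 1 rose (Prl3d1) and 1 fell (Gcm1). The other 2, Prl8a2 and Tpbpa, were not tested, having no probe well above background in both embryos of any genotype. The trophoblast and decidua sum is nearly all Gcm1, which read 4.08 and 2.97 in homozygous, 5.85 and 5.34 in heterozygous and 5.63 and 5.84 in wild-type embryos, while Prl3b1 and Prl3d1 differed the other way, by 0.52 and 0.77. A higher sum in homozygous embryos was not particular to the progenitor and smooth muscle lists. Fetal liver markers summed to 123.5 to 127.7 in homozygous and 84.1 to 89.8 in wild-type embryos. For skeletal muscle markers it was 52.5 to 55.0 and 36.2 to 40.9, and for erythroid markers 84.4 to 103.5 and 69.5 to 82.9. The skeletal muscle sum takes Ttn at its brightest probe, which differed from wild type by 0.46 and did not pass. The second brightest Ttn probe differed by −4.36 (limma, adjusted p = 0.00113), and its remaining probes by −0.05 and −0.45. What part these cell types play in any of the differences was not tested.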

How the data were processed

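Total RNA of 6 day 12 embryos was labelled with Cy3 and hybridised to Agilent arrays of 44397 spots, per the labels. Per the file headers, the deposited intensity values are Agilent Feature Extraction 11.0.1.1 signals, background-subtracted within each array and not normalized between arrays. The deposited value table of the authors holds log2 values with a median of 6.72 on every array (correlation 0.995 to 0.999 with the log2 scanner signal); how it was normalized is not given in the sources used here. Here the log2 of the processed intensity was taken relative to each array's 75th percentile, spots of 1 probe were averaged, control and outlier spots were dropped, and of 39429 gene probes the 29910 that some genotype showed well above background in both of its embryos went into the fit. All 14 probes of the genes described were kept. Accessions were named through RefSeq (27234 probes). One fit over the 6 arrays used limma 3.58.1 in R 4.3.3 (lmFit and eBayes), with Benjamini-Hochberg adjustment per comparison and a threshold of 0.05; it was tested on simulated data. A few probes with a missing value dropped out of a comparison.

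The genes and the lists were chosen with earlier results of these data known. Named are all probes of the 10 genes, and from each pathway list up to 3 genes in each direction past the threshold in homozygous against wild type with the smallest p; the other targets are given as values and were chosen after their values were seen. The labels do not say whether embryos of 1 genotype come from separate litters, so p-values measure the spread between these samples. Some results are not reported here.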

Additional observations from a re-analysis of the deposited data

How the results depend on the processing

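Every alternative but the ones named here left the counts within 1.5 times. In homozygous against wild type, 4 of the 14 probes passed; with normexp in place of the processed signal 2 did, with the brightest probe of each of the 10 genes 2, and leaving out 1 embryo 2 to 5. Against heterozygous embryos 4 passed, and 2 with normexp, 2 with 4 arrays only, 2 with the brightest probe, and 2 to 5 leaving out 1 embryo. Of the pathway genes 12 passed against wild type, with 24 under normexp, 23 under normexp and quantile normalization, 6 without the filter on dim probes, 6 with 4 arrays only, 6 at the second probe of 19 genes, and 1 to 16 leaving out 1 embryo. Against heterozygous embryos 8 passed, with 26 under normexp, 20 under normexp and quantile normalization, 4 without the filter, 5 at the second probe, and 1 to 12 leaving out 1 embryo. Over all probes 8309 passed against wild type, with 2060 to 10782 leaving out 1 embryo (2410 without the first wild-type embryo, 2060 without the second). Against heterozygous embryos 6817 passed, with 13946 under normexp, 3525 with 4 arrays only and 1937 to 9572 leaving out 1 embryo. The cause of these shifts was not tested.

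Normexp moved the median difference of all probes to 0.19 (0.08 with the processed signal) in homozygous against wild type and to 0.24 (0.07) against heterozygous embryos, and the higher share of the calls to 67.6% (47.7%) and 76.2% (42.5%). The difference at the brighter Notch1 probe ran from −4.90 to −3.77 over its 15 settings. Dll1 lost its call without either wild-type embryo (0.60 to 0.85 over its settings). Dll4 passed with the replicate block and without the first homozygous embryo. In heterozygous against wild type, 0 of the 14 probes and 0 pathway genes passed in each setting, and over all probes 0 passed except 1, 3 and 7 without the second heterozygous, the first wild-type and the second wild-type embryo.

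The replicate numbers of the titles are not said to pair embryos. Their deviations correlated with r = 0.29 between homozygous and heterozygous, −0.16 between homozygous and wild type and −0.0017 between heterozygous and wild type over 29910 probes. With the replicate block, 5, 0 and 4 of the 14 probes passed, and 12, 0 and 7 pathway genes, in the comparisons of homozygous with wild type, of heterozygous with wild type and of homozygous with heterozygous. Signal near background limits the dim probes. Under normexp the homozygous minus wild-type differences were −0.13 at the dimmer Notch1 probe, −0.25 at the dimmer Notch2 probe and 0.02 at Dll4. Its offset of 50 by itself narrows differences between dim signals, and how much of the change comes from the offset was not tested.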

Other observations

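Probes with different name prefixes, which were read after the values were seen, differed in how often they were lower in homozygous than in wild-type embryos. Among 5930 tested probes whose names begin with A_51, 0.253% were lower by 4-fold or more, and 8.82% passed the threshold as lower. Among 4175 beginning with A_52 it was 1.01% and 11.4%, and among 18204 beginning with A_55 it was 2.26% and 17.0%. Both Notch1 probes and the dimmer probes of Notch2, Dll3 and Rbpj are A_55 probes, while the probes of Notch3, Notch4, Dll1, Dll4 and Jag2 and the brighter Dll3 probe are A_51 probes. The probes of Slc16a7, Trpm1 and Chat with the profiles most like the brighter Notch1 probe are A_55 probes too. For heterozygous against wild type, 0.0385% of A_55 and 0.0169% of A_51 probes were lower by 4-fold or more. What separates the prefixes was not tested.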
